A study of Caenorhabditis elegans with 24 samples.

Results

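The genes described here encode 9 enzymes of the glyoxylate shunt, gluconeogenesis, and glycogen and trehalose metabolism in larvae of the nematode Caenorhabditis elegans. They were listed by name, and the rule uses no measured value: icl-1 (C05E4.9) for the glyoxylate shunt, pyc-1 (D2023.2), pck-1, pck-2 (R11A5.4) and fbp-1 (K07A3.1) for gluconeogenesis, gsy-1 (Y46G5A.31) and the glycogen phosphorylase gene (T22F3.3) for glycogen, and tps-1 (ZK54.2) and tps-2 (F19H8.1) for trehalose. The glycogen phosphorylase gene, listed as pyg-1, is pygl-1 in the WBcel235 annotation and is called so here. The name W05G3.1 listed for pck-1 has no row in the count tables, and pck-1 was taken from the row W05G11.6, which carries that symbol in the annotation. All 9 of these genes, of 44968 identifiers in the tables, passed the filter on low counts, as did 19050 identifiers in all.

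Larvae that hatch without food live on fat and other stores laid down in the embryo. The glyoxylate shunt bypasses the steps of the citric acid cycle that release carbon dioxide, so that carbon from fatty acids can be turned into malate and oxaloacetate, from which gluconeogenesis builds glucose phosphates. Glucose phosphates are stored as glycogen or joined into trehalose, a sugar that protects nematodes against drying and other stress and serves as a reserve.

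Messenger RNA was sequenced from larvae in the first larval stage (L1) to separate the effect of perceiving food from that of eating it. The strain, LRB269, has mutations in the glutamate-gated chloride channel genes glc-1(pk54), glc-3(ok321), avr-14(vu47) and avr-15(vu227), with avr-15 restored in the pharynx from the transgene dukIs10, whose myo-2 promoter is active in pharyngeal muscle. Ivermectin then stops the pharynx from pumping, and larvae in contact with bacteria cannot swallow them. All groups carry these mutations and the transgene, and all hatched and spent 24 h without food before bacteria were added to the food samples. Larvae given Escherichia coli HB101 at 25 mg/mL (F) or no bacteria (S) for 1 h had no ivermectin, and those given HB101 (IvF) or no bacteria (IvS) for 1 h or 24 h had ivermectin at 5 ng/mL throughout. The general methods of the study give a higher ivermectin concentration for this strain, as the lowest that stopped it eating. The lower 5 ng/mL is that of the sample labels and the sequencing methods. Bacteria given with ivermectin are called uneaten here after the study's design. Each of the 6 conditions had 4 biological replicates, numbered 1 to 4 in the labels without ivermectin. With ivermectin the labels end in _181, _183, _185 and _186, and values are given in that order. The library IF_1hr_181, named by its label, is the first of IvF at 1 h.

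Reads counted on genes ranged from 8690378 to 14139935 in the 8 libraries without ivermectin and from 14498061 to 19448998 in the 16 with it, and reads that fell on more than 1 gene made up 6.59% to 10.2% and 2.97% to 3.68%. Ivermectin and the set of libraries that carries it cannot be told apart. S replicate 4 stood apart from its group: 15.1% of the genes tested were over 2-fold from the median of the other 3 libraries, against 1.22% to 3.43% in these, and acs-2, an acyl-CoA synthetase gene, had 3.09 CPM there and 798 to 975 in the others. Of the others, IF_1hr_181 stood apart in 13.2% of the genes and IF_1hr_186 in 10.8%, and with ivermectin at 24 h IF_24hr_186 in 17.0% and I_24hr_185 in 13.0%. Results that rest on S 4 or IF_1hr_181 are given with and without them. F replicate 4 was also lowest of its group for acs-2, at 23.5 CPM against 103 to 252, and was kept when S 4 was left out. Of 9 markers of L1 tissues, 7 had at least 10 CPM in every library, and the hypodermal genes dpy-7 and rol-6 had 0.498 to 20.9 and 0 to 10.3. Sperm genes were at most 0.731 CPM, and all 12 genes of yolk, oocytes, sperm and early embryos summed to 23.0 to 146 CPM. In RNA from whole larvae, fewer cells of a type and less RNA per cell cannot be told apart.

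Values are given for each library in CPM, the counts-per-million of reads on genes. Levels are in CPM, and fold changes come from a fit with TMM scaling, a scaling that assumes most genes do not change. A gene was called higher or lower at an adjusted p below 0.05 and a log2 fold change beyond 0.5 in either direction. Over the libraries of a comparison, CPM of the library total differed from the TMM scale by 0.20 on the log2 scale in F against S, 0.28 in IvF against F and 0.46 in IvS against S, and by at most 0.10 in size in the other comparisons. In the first 3, differences in CPM are higher than the fitted ones by that amount.

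**Figure D1:**
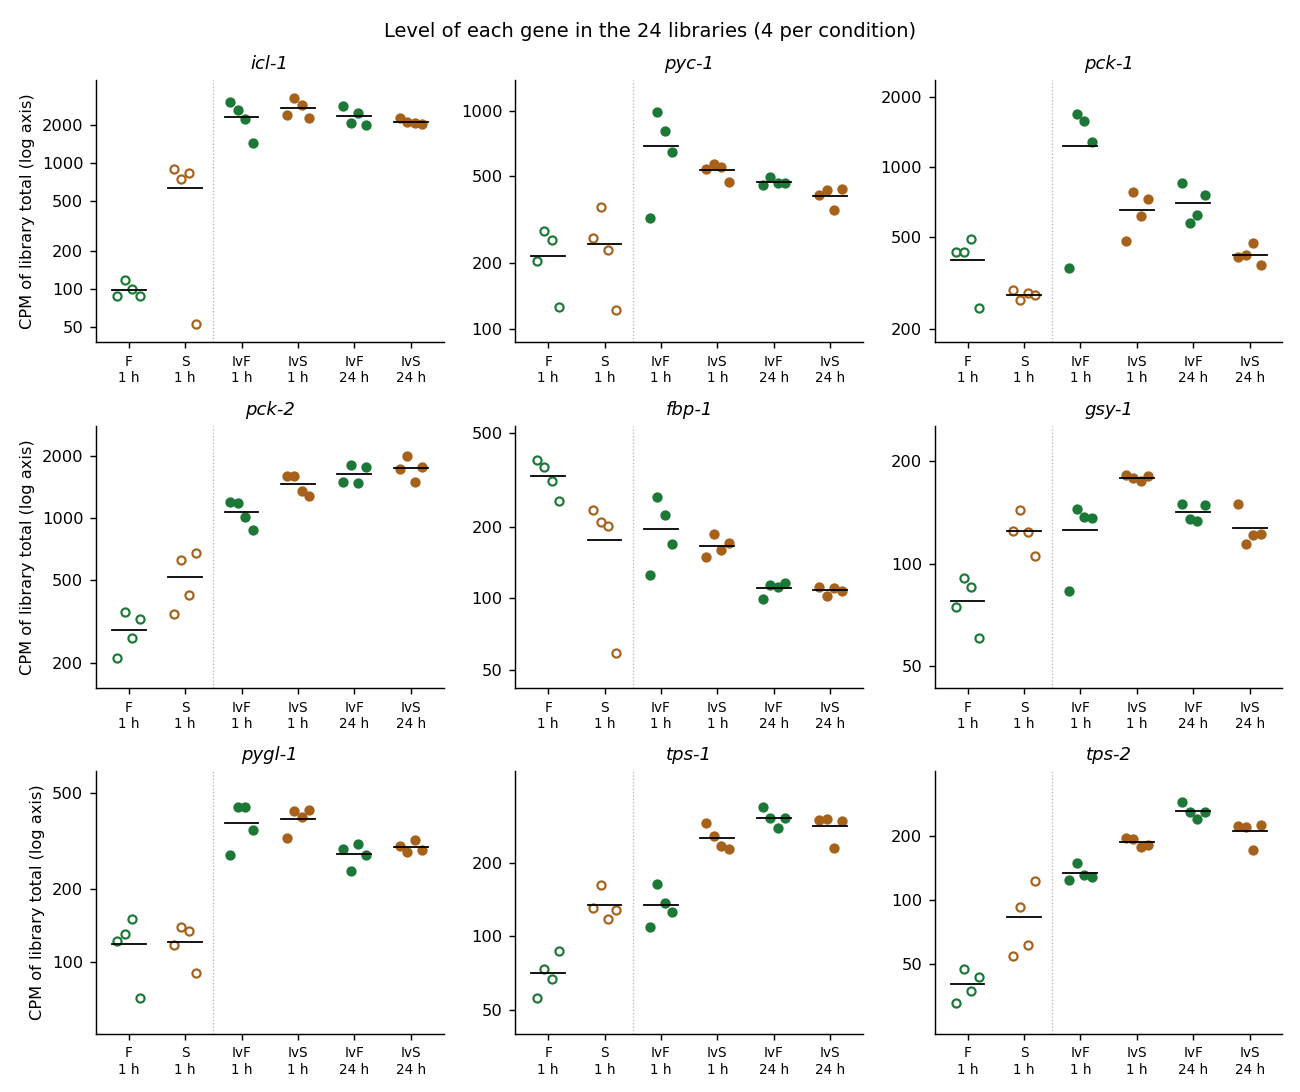
CPM of the library total (log axis) of each gene in the 24 libraries. Each point is a library, bars are means of 4 libraries, green is with and brown without bacteria, open circles are without and filled circles with ivermectin, and the dotted line separates the 2 sets. In S replicate 4 icl-1 had 53.3 CPM, against 754 to 905 in the other S libraries, and tps-1 and tps-2 were lower in F than in S and lower in IvF than in IvS at 1 h without overlap.

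Feeding for 1 h lowered 5 of the 9 genes and raised none. Those lower in F than in S were icl-1, pck-2, gsy-1, tps-1 and tps-2, at 0.127 to 0.541 of their level in S. Of all genes tested 15.4% were lower and 13.6% higher in F, and the median log2 fold change was -0.89 over the 9 genes and -0.07 over all. When the bacteria could not be eaten, 2 of the 9 genes, gsy-1 and tps-1, were lower in IvF than in IvS at 1 h in the edgeR fit, against 2.29% of all genes lower and 3.27% higher. In that fit none of the 9 was higher, while DESeq2 (log2 0.87, adjusted p = 0.0324) and edgeR's exact test (log2 0.86, adjusted p = 0.0473) called pck-1 higher. After 24 h none of the 9 was called between IvF and IvS in the edgeR or the DESeq2 fit, where 0.194% of all genes were lower and 0.583% higher, and pck-1 alone had an unadjusted p below 0.05, at a log2 fold change of 0.65 (SE 0.28, edgeR adjusted p = 0.666). The study named genes of these routes from the same libraries, and the counts are not independent evidence of their direction. With S replicate 4 and IF_1hr_181 both left out, 6 genes were lower in F than in S, the sixth being pyc-1, and in IvF against IvS at 1 h tps-1 and tps-2 were lower and pck-1 higher. Markers of L1 tissues moved with feeding too: in F against S the intestinal gene ges-1 was at -1.72 (SE 0.19) and the muscle gene myo-3 at -1.31 (SE 0.36), while the intestinal regulator elt-2 was at 0.62 (SE 0.19). Of the 9 markers of L1 tissues none was called in IvF against IvS at 1 h, and at 24 h ges-1 alone was, at 0.96 (SE 0.18). Some markers of oocytes and early embryos were higher with bacteria at 1 h. In F against S these were oma-1 at 1.14 (SE 0.40), oma-2 at 1.31 (SE 0.30) and mex-5 at 1.17 (SE 0.28), and in IvF against IvS oma-1 at 1.5 (SE 0.41), puf-5 at 0.96 (SE 0.27) and mex-5 at 1.33 (SE 0.27). The 12 genes of that list summed to 96.2 to 146 CPM in F and 68.7 to 133 in S, and to 44.4 to 129 in IvF and 45.2 to 73.3 in IvS at 1 h. The part of these markers in the results was not tested.

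**Figure D2:**
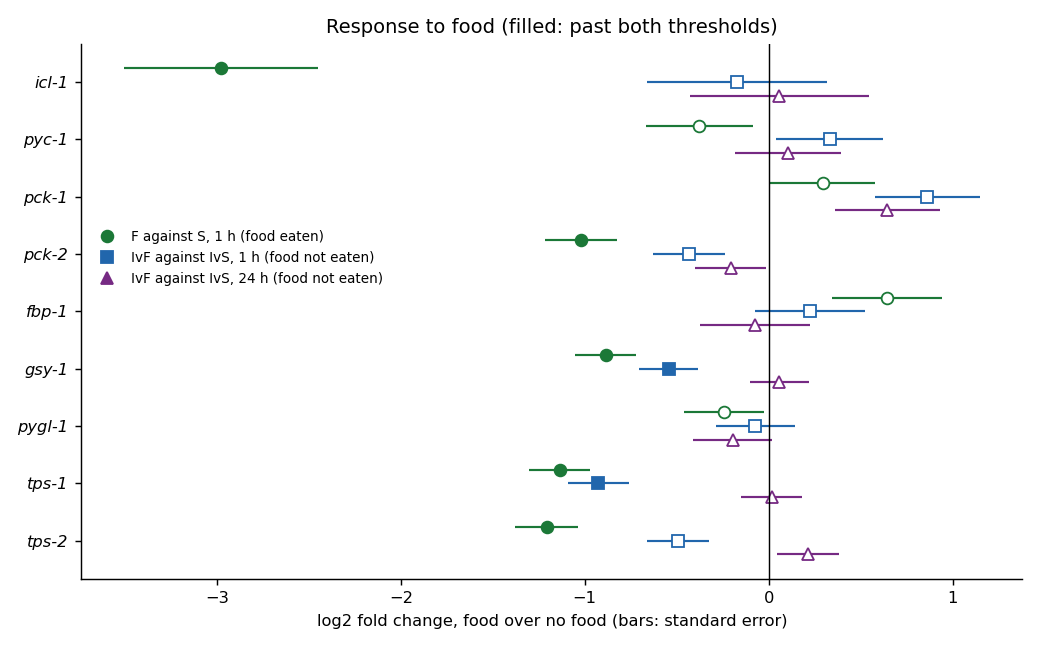
Log2 fold change between larvae with and without bacteria for each gene (horizontal axis) in F against S at 1 h, IvF against IvS at 1 h and IvF against IvS at 24 h. Bars are standard errors, and filled symbols passed both thresholds: 5 genes in F against S, 2 in IvF against IvS at 1 h and 0 at 24 h.

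The bifunctional enzyme of icl-1 carries out both steps of the shunt, isocitrate lyase and malate synthase. In F its level was 88.1, 119.6, 101 and 88.1 CPM in replicates 1 to 4, and in S it was 905, 754, 842 and 53.3 CPM. The first 3 S libraries were above every F library, and S 4 was below all of them. The log2 fold change of F against S was -2.98 (SE 0.53, adjusted p = 0.000121), and without S 4 it was -3.35 (SE 0.27, adjusted p = 1.25e-09). At 17th from the bottom of 19050 genes ranked by the difference between S 4 and the median of the other S libraries, icl-1 was among the genes that set S 4 apart.

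With ivermectin icl-1 had the highest mean of the 9 genes per length in all 4 conditions, and it was not called for food at either time. It had 3055, 2626, 2244 and 1448 CPM in IvF at 1 h and 2407, 3282, 2908 and 2304 CPM in IvS at 1 h. These ranges overlapped, with a log2 fold change of -0.17 (SE 0.49, adjusted p = 0.999). Without IF_1hr_181, icl-1 was at -0.45 (SE 0.53, adjusted p = 0.847), and with S 4 left out as well at -0.45 (SE 0.23, adjusted p = 0.338). At 24 h it had 2829, 2099, 2507 and 2009 CPM in IvF and 2276, 2121, 2103 and 2054 CPM in IvS, again with overlap (0.06, SE 0.49, adjusted p = 0.999). For icl-1 the response to food was also compared between larvae with and without ivermectin. The interaction, the fold change of F against S minus that of IvF against IvS at 1 h, was -2.81 on the log2 scale (SE 0.70, adjusted p = 0.0111), and -3.17 without S 4 (SE 0.35, adjusted p = 2.07e-06). With a replicate block it was -2.23 (SE 0.74, adjusted p = 0.0593) and not called. In the edgeR fit without a block icl-1 alone of the 9 was called in this interaction, in which 5.02% of all genes were lower and 5.31% higher, and DESeq2 called tps-2 as well (-0.71, adjusted p = 0.0228). The intestinal marker ges-1 was called there too, at -1.36 (SE 0.25), and its part was not tested. With S 4 and IF_1hr_181 both left out, pyc-1 was called as well, at -1.15 (SE 0.31, adjusted p = 0.0141). Ivermectin and the set of libraries cannot be told apart in this interaction either.

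Pyruvate carboxylase, encoded by pyc-1, makes oxaloacetate from pyruvate. Its level was 126 to 280.0 CPM in F and 122 to 362 in S, with replicate 4 lowest in both, and the fold change was not called (log2 -0.38, SE 0.29, adjusted p = 0.356). In IvF at 1 h it had 321, 989.8, 810.5 and 644 CPM, so that IF_1hr_181 was below all 4 IvS libraries (473 to 567 CPM) and the other 3 were above them. The log2 fold change there was 0.33 (SE 0.29, adjusted p = 0.824), and 0.52 without IF_1hr_181 (SE 0.29, adjusted p = 0.471). At 24 h pyc-1 had 458 to 498 CPM in IvF and 349 to 438 in IvS, which did not overlap in CPM but did on the TMM scale, at a log2 fold change of 0.11 (SE 0.29, adjusted p = 0.999).

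Both phosphoenolpyruvate carboxykinases, which turn oxaloacetate into phosphoenolpyruvate, were measured in every library. In F pck-1 had 429, 428, 489.8 and 246 CPM, and in S 294, 266, 285 and 279.8. F 4 was below all S libraries and the other 3 F libraries were above them, and the gene was not called (log2 0.29, SE 0.28, adjusted p = 0.476). In IvF at 1 h pck-1 had 365, 1689.7, 1573 and 1272 CPM, and in IvS 480.0, 778, 616 and 728. IF_1hr_181 was below every IvS library, and the other 3 IvF libraries were above all of them. The log2 fold change was 0.86 (SE 0.29, adjusted p = 0.0833), not past the threshold in this fit, and without IF_1hr_181 it was 1.13 (SE 0.23, adjusted p = 0.00387). At 24 h its 850.1, 571, 619 and 755 CPM in IvF were all above the 409, 417, 471 and 376 CPM in IvS, at the log2 fold change of 0.65 given above.

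Food lowered pck-2. It had 211, 352, 262 and 326 CPM in F and 342, 625, 423 and 676 in S. Only F 2 and S 1 overlapped. The log2 fold change was -1.02 (SE 0.20, adjusted p = 0.000261), and on the TMM scale the groups did not overlap. In IvF at 1 h pck-2 had 1193, 1182, 1014 and 878 CPM, all below the 1594, 1599, 1359 and 1283 in IvS, and the fold change was not called (log2 -0.43, SE 0.20, adjusted p = 0.294). At 24 h the 1494, 1802, 1479 and 1770.3 CPM in IvF overlapped the 1736, 2005, 1489.6 and 1761 in IvS (log2 -0.21, SE 0.20, adjusted p = 0.999). Another gene of the family, pck-3, which was looked up after the values of the others were seen, had 0 to 8.93 CPM.

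The ratio of pck-1 to pck-2 per length within a library was 3.27, 1.96, 3.01 and 1.21 in F and 1.38, 0.684, 1.08 and 0.667 in S, with overlap only through F 4. It was 0.493, 2.3, 2.5 and 2.33 in IvF at 1 h, and in IvS 0.485, 0.783, 0.729 and 0.913. IF_1hr_181 lay with the IvS libraries and the other 3 stood above them. At 24 h the ratio was 0.510 to 0.916 in IvF and 0.335 to 0.509 in IvS, where the highest IvS library was just below the lowest IvF library. These ratios are descriptions with no test.

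**Figure D3:**
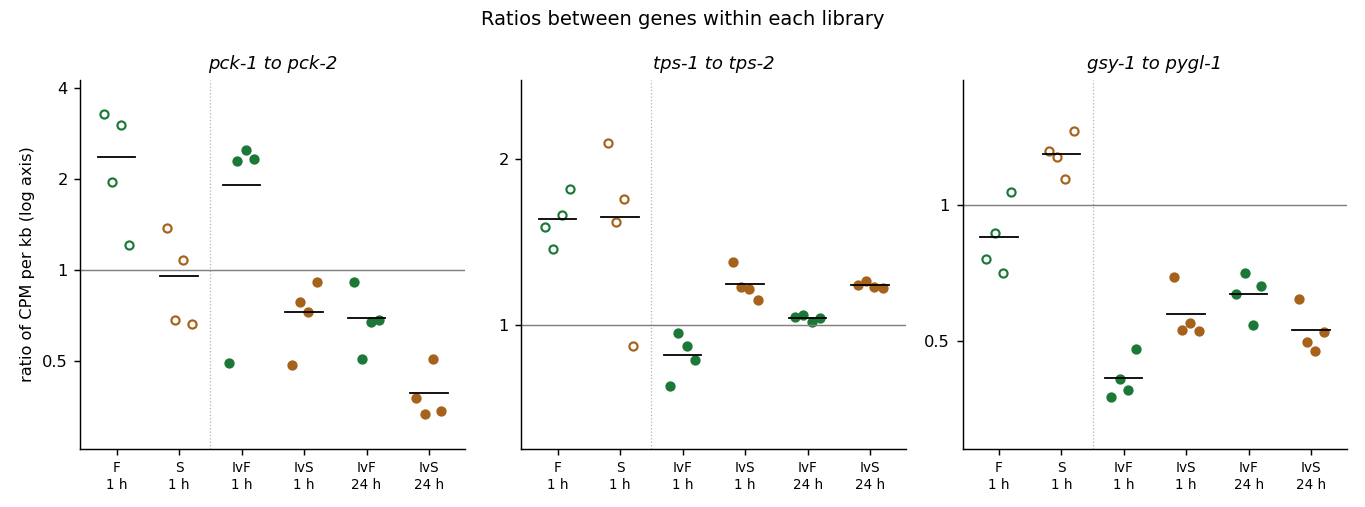
Ratio of CPM per kb between pairs of genes within each library (log axis): pck-1 to pck-2, tps-1 to tps-2 and gsy-1 to pygl-1, by condition, with means of 4 libraries as bars. With bacteria pck-1 exceeded pck-2 per length in all 4 F libraries and in 3 of 4 IvF libraries at 1 h, and tps-1 to tps-2 was below 1 in all 4 IvF libraries at 1 h and above 1 in all 4 IvS libraries.

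Fructose bisphosphatase, the enzyme of fbp-1, removes a phosphate from fructose bisphosphate on the way to glucose phosphates, and the mean of fbp-1 was highest in F of the 6 conditions. It had 383, 360.1, 312 and 257 CPM in F and 237, 210.1, 202 and 58.6 in S. The groups did not overlap in CPM but did on the TMM scale, and the fold change was not called (log2 0.64, SE 0.30, adjusted p = 0.108). S 4 had the lowest value of all 24 libraries, and without it the log2 fold change was 0.35 (SE 0.19, adjusted p = 0.172). With ivermectin, fbp-1 had 125 to 269 CPM in IvF and 149 to 187 in IvS at 1 h, and 99.6 to 116 in IvF and 102 to 112 in IvS at 24 h, with overlap at both times and adjusted p of 0.974 and 0.999.

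Glycogen synthase, encoded by gsy-1, was lower with food at 1 h, and glycogen phosphorylase, encoded by pygl-1, was not called for food. In F gsy-1 had 74.7, 90.8, 85.5 and 60.5 CPM, all below the 125, 143, 123 and 105 in S, with a log2 fold change of -0.89 (SE 0.16, adjusted p = 0.000152). In IvF at 1 h it had 83.3, 145, 137 and 136 CPM, all below the 181.3, 178, 175 and 180.3 in IvS. The log2 fold change of -0.54 (SE 0.16, adjusted p = 0.0476) was just past both thresholds, and 7 of the 8 fits that each left out 1 library lost the call, among them that without IF_1hr_181 (-0.46, SE 0.17, adjusted p = 0.162). At 24 h gsy-1 had 149, 136, 134 and 148 CPM in IvF and 149.9, 114, 122 and 123 in IvS, which overlapped (log2 0.06, SE 0.16, adjusted p = 0.999). Phosphorylase, which releases glucose phosphate from glycogen, had 70.7 to 151 CPM in F and 90.0 to 139.9 in S (pygl-1 log2 -0.24, SE 0.22, adjusted p = 0.433), and its adjusted p was 0.999 in IvF against IvS at both times. Per length, gsy-1 to pygl-1 was 0.706 to 1.07 in F and 1.14 to 1.46 in S without overlap, 0.374 to 0.479 in IvF and 0.527 to 0.694 in IvS at 1 h without overlap, and 0.542 to 0.706 and 0.475 to 0.620 at 24 h with overlap.

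Trehalose phosphate synthase, which joins glucose phosphate to UDP-glucose, is encoded by tps-1 and tps-2, and both responded to food that was eaten. In F tps-1 had 55.8, 73.3, 66.5 and 86.6 CPM and in S 131, 162, 117 and 128, with every F library below every S library. Its log2 fold change was -1.14 (SE 0.17, adjusted p = 9.11e-06). Likewise tps-2 had 32.7, 47.1, 37.0 and 43.2 CPM in F and 54, 92.7, 61.0 and 123 in S without overlap, at a log2 fold change of -1.21 (SE 0.17, adjusted p = 6.26e-06). S 4, lowest of its group for icl-1 and fbp-1, was highest of its group for tps-2 and pck-2. Without it, tps-1 was at -1.2 (SE 0.16) and tps-2 at -1.02 (SE 0.16).

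Food that was not eaten lowered tps-1 at 1 h. It had 109, 164, 137 and 126 CPM in IvF and 291, 258, 234.7 and 229 in IvS, with no overlap and a log2 fold change of -0.93 (SE 0.17, adjusted p = 0.000883). This call was kept in all 8 fits that left out 1 library, at -0.83 to -1.07, and was lost in a test against the fold change threshold itself (adjusted p = 0.0766). The paralogue tps-2 had 124, 149, 132 and 129 CPM in IvF and 197, 194, 178 and 181.3 in IvS, also without overlap, at a log2 fold change of -0.49 (SE 0.17, adjusted p = 0.0993) that passed neither threshold. At 24 h tps-1 had 339, 306, 278 and 304 CPM in IvF and 301, 302, 230.3 and 298 in IvS, and tps-2 had 289, 259, 241 and 260.3 in IvF and 224, 221, 173 and 225 in IvS. The tps-1 libraries overlapped (log2 0.02, SE 0.16, adjusted p = 0.999), and tps-2 was above in CPM in every IvF library but not on the TMM scale (log2 0.21, SE 0.17, adjusted p = 0.999).

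The response of tps-1 to food that was not eaten differed between 1 h and 24 h. The interaction was 0.94 on the log2 scale (SE 0.23, adjusted p = 0.0493), in a comparison in which 0.661% of all genes were higher and 0.310% lower, and 11 of 16 fits that left out 1 library lost the call, with adjusted p up to 0.143. Among these, it was 0.83 without I_24hr_185 (SE 0.23, adjusted p = 0.113) and 0.94 without IF_1hr_181 (SE 0.25, adjusted p = 0.0866). The marker ges-1 was also called in it, at 1.32 (SE 0.25), and its part was not tested. For tps-2 the interaction was 0.71 (SE 0.24, adjusted p = 0.245), and for gsy-1 0.60 (SE 0.23, adjusted p = 0.371), neither past the threshold. Per length tps-1 to tps-2 was 0.778 to 0.970 in IvF and 1.11 to 1.3 in IvS at 1 h, and 1.02 to 1.04 in IvF and 1.17 to 1.2 in IvS at 24 h, lower with bacteria at both times without overlap. Without ivermectin it was 1.37 to 1.77 in F and 0.916 to 2.14 in S, with overlap.

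Between 1 h and 24 h with ivermectin, both trehalose synthase genes were called higher in IvF and neither was called in IvS. In IvF at 24 h against 1 h, tps-1 was higher by 1.16 (SE 0.17, adjusted p = 4.02e-05) and tps-2 by 0.94 (SE 0.17, adjusted p = 0.000539) on the log2 scale, each above in all 4 libraries. The edgeR fit called no other gene of the 9, and of all genes 4.20% were higher and 5.72% lower. DESeq2 also called pck-2 higher (0.56, adjusted p = 0.0164) and pck-1 (-0.80, adjusted p = 0.0365) and fbp-1 (-0.86, adjusted p = 0.0248) lower, and edgeR's exact test called fbp-1 as well (adjusted p = 0.0430). The replicate numbers of IvF at 1 h and 24 h were taken as pairs. The block for the number was fitted over all libraries, so that IvF and IvS at both times shared it. Same-numbered IvS samples correlated at -0.34 to -0.20 between these times, so the block was not a test of paired IvF samples alone. With it 2 further genes were called: pck-2 was higher (log2 0.58, adjusted p = 0.00908) and fbp-1 lower (log2 -0.83, adjusted p = 0.0130). Without IF_1hr_181, pck-1 was lower at 24 h (log2 -1.06, SE 0.23, adjusted p = 0.00341) and pck-2 higher (log2 0.72, SE 0.20, adjusted p = 0.0222), and with all libraries they were at -0.79 (adjusted p = 0.0806) and 0.55 (adjusted p = 0.0776). With S 4 left out as well, 6 were called. The 3 higher were tps-1, tps-2 and pck-2, and the 3 lower were pck-1, pyc-1 and fbp-1. S 4 is in neither group: without IF_1hr_181, pyc-1 was at -0.75 whether S 4 was kept or not. The SE of pyc-1, from a spread shared by all groups, was 0.29 with S 4 and 0.22 without it (edgeR adjusted p = 0.111 and 0.0219). The muscle markers myo-2 at -0.83 (SE 0.24) and unc-54 at -0.88 (SE 0.17) and the neuronal marker rab-3 at -0.51 (SE 0.16) were lower and ges-1 higher, at 0.76 (SE 0.18), and their part was not tested. In IvS no gene of the 9 was called between 24 h and 1 h, where 2.07% of all genes were higher and 3.17% lower, by edgeR or DESeq2, and gsy-1 alone had an unadjusted p below 0.05 (log2 -0.43, SE 0.16, adjusted p = 0.133). There tps-1 was at 0.22 (SE 0.16) and tps-2 at 0.23 (SE 0.17), also upward. The interaction of food with time, given above, was not called for tps-2 and was unstable for tps-1.

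These transcripts took a larger share of the reads in the libraries with ivermectin than in those without it. Ivermectin and the set of libraries cannot be told apart here. Together the 9 genes took 0.130% to 0.188% of the reads on genes in F and 0.164% to 0.275% in S, and 0.515% to 0.766% in the 16 libraries with ivermectin. In IvF against F, 7 of the 9 were higher and 1 lower, where 33.1% of all genes were higher and 27.7% lower, and the median log2 fold change was 1.37 over the 9 and 0.13 over all. The largest was icl-1 at 4.35 (SE 0.56, adjusted p = 8.96e-07), then pck-2 at 1.66 (SE 0.20), tps-2 at 1.48 (SE 0.17), pygl-1 at 1.38 (SE 0.22), pyc-1 at 1.37 (SE 0.29), pck-1 at 1.29 (SE 0.29) and tps-1 at 0.67 (SE 0.17). The gene that was lower was fbp-1 at -1.03 (SE 0.30, adjusted p = 0.00506), whose libraries overlapped in CPM, and gsy-1 at 0.39 passed only the threshold on p (SE 0.16, adjusted p = 0.0401).

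Between starved larvae, 5 of the 9 were higher in IvS than in S and none lower, where 28.2% of all genes were higher and 29.1% lower, and the median was 0.72 over the 9 and 0.04 over all. These were icl-1 at 1.54 (SE 0.50), pygl-1 at 1.21 (SE 0.22), pck-2 at 1.07 (SE 0.20), tps-2 at 0.77 (SE 0.17) and pck-1 at 0.72 (SE 0.29, adjusted p = 0.0330), the last of which lost its call in 5 of 8 fits that left out 1 library. Every IvS library was above every S library for gsy-1 in CPM, but on the TMM scale they overlapped, at 0.05 (SE 0.16, adjusted p = 0.817). Without S 4, icl-1 was at 1.22 (SE 0.26) and fbp-1 was lower by 0.85 (SE 0.19, adjusted p = 0.000466). Scaling by the size factors of DESeq2 moved the median of all genes to 0.26 in IvF against F and to 0.18 in IvS against S, and the genes called kept their direction there. With S 4 and IF_1hr_181 both left out, 8 were called in IvF against F and 6 in IvS against S. Marker genes moved with ivermectin in both directions. The muscle gene myo-2, whose promoter drives the transgene, had a median of 244 CPM without and 2522 with ivermectin, and the neuronal genes unc-119 and rab-3 had 48.0 and 254 without and 27.5 and 135 with it. The 9 markers of L1 tissues summed to 1908 to 3376 CPM without and 4524 to 10702 with it. The part of cell makeup and of the set of libraries in these differences was not tested.

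Compared per length, as CPM per kb of exon, the order of the 9 genes differed between conditions. In F it was led by pck-1 at 193 ± 51.2 (SD, n = 4) and fbp-1 at 160.2 ± 27.2, whose ranges overlapped, with pck-2 at 86.7 ± 19.1 apart from both. Next came pyc-1, pygl-1, gsy-1 and icl-1, from 54.1 down to 31.7, each overlapping its neighbour, and tps-1 at 16.2 ± 2.97 and tps-2 at 10.4 ± 1.67 stood last and apart. In S icl-1 led at 204 ± 126, but through S 4 alone its range overlapped pck-2 at 156 ± 48.1 and all the others. In IvS at 24 h icl-1 at 683 ± 30.6, pck-2 at 527 ± 63.5 and pck-1 at 203 ± 19.2 were in that order and apart, and fbp-1 at 52.7 ± 2.03 and gsy-1 at 51.9 ± 6.37 were lowest and overlapped. The trehalose synthase genes, last in F, were above fbp-1 and gsy-1 in mean in both 24 h conditions, at 70.5 ± 5.78 for tps-1 and 68.3 ± 5.16 for tps-2 in IvF.

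The enzymes on either side of these routes were read from 4 lists with 61 genes, of which 59 were tested: glycolysis, entry of pyruvate, the citric acid cycle, and other genes of trehalose and glycogen. In F against S, 7 were higher and 8 lower, with a median of -0.05, which as shares of 59 are near the 13.6% and 15.4% of all genes. Among those of at least 10 CPM, the largest falls were in pyk-2, a pyruvate kinase, at -2.05 (SE 0.19), idhg-2, a subunit of the mitochondrial isocitrate dehydrogenase, at -1.41 (SE 0.26) and aldo-2, an aldolase, at -1.36 (SE 0.19). The largest rises there were in idh-1, an NADP-dependent isocitrate dehydrogenase, at 1.37 (SE 0.34), sucg-1, a succinyl-CoA synthetase subunit, at 1.37 (SE 0.14) and aco-1, an aconitase, at 1.04 (SE 0.17). Glycolysis had 1 gene higher and 5 lower of 17, and of the 12 trehalose and glycogen genes 1 was higher and 2 lower. The citric acid cycle list had 4 higher and 1 lower of 23. That list did not separate enzymes inside and outside the mitochondria, and holds idh-1, aco-1 and mdh-1 beside idh-2, aco-2 and mdh-2. The trehalose phosphatase gob-1, which acts after the synthases, had 44.4 to 60.3 CPM in F and 44.8 to 68.8 in S and was not called.

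In IvF against IvS at 1 h, pyk-2 fell by 1.34 (SE 0.18) and the trehalase gene tre-4 by 0.81 (SE 0.14), and gpd-1, a glyceraldehyde phosphate dehydrogenase gene, rose by 0.65 (SE 0.19) and aco-1 by 0.57 (SE 0.17). The other 55 were not called, and at 24 h none of the 59 was. Of these, pyk-2 had 36.8 to 53.6 CPM in F, 125 to 222 in S, 45.9 to 69.3 in IvF and 128.5 to 171 in IvS at 1 h, and 124 to 163 in IvF and 118 to 182 in IvS at 24 h. It was lower with bacteria at 1 h without overlap in both sets and overlapped at 24 h, and was the only gene of the 59 called in the interaction of food with time, at 1.12 (SE 0.26, adjusted p = 0.0296). In the interaction of food with ivermectin, sucg-1 was higher by 1.16 (SE 0.19) and K08E3.5 and hxk-3, a hexokinase, were lower by 0.79 and 0.59, and pfk-1.2, at under 10 CPM, was lower too.

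With time in larvae that did not eat, some genes of the citric acid cycle list were lower and none was called higher in the edgeR fit. In IvF at 24 h against 1 h 10 of its 23 genes were lower and 13 were not called, with a median of -0.65, where 5.72% of all genes were lower. In IvS 8 were lower and 15 were not called, with a median of -0.59, where 3.17% of all genes were lower. The medians over the 9 genes were -0.06 and -0.33. Across all 4 lists 15 of 59 were lower and 2 higher in IvF, against 5.72% and 4.20% of all genes, the largest falls being ldh-1, a lactate dehydrogenase, at -1.32 (SE 0.26), idh-1 at -1.32 (SE 0.34) and mdh-1, a malate dehydrogenase, at -1.22 (SE 0.21). The 2 that rose were pyk-2 at 1.23 (SE 0.18) and tre-4 at 0.67 (SE 0.14). In IvS 12 of 59 were lower and none higher, against 3.17% and 2.07% of all genes, with idhg-2 at -1.32 (SE 0.26), the pyruvate dehydrogenase subunit pdhb-1 at -1.0 (SE 0.19) and the trehalase gene tre-3 at -0.81 (SE 0.22).

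With ivermectin 10 of the 59 were higher and 12 lower in IvF against F, and 9 higher and 15 lower in IvS against S. Of all genes 33.1% were higher and 27.7% lower in the first and 28.2% and 29.1% in the second, so that these lists held smaller shares of called genes than the table as a whole. The glycogen debranching gene agl-1 rose most in both, by 2.77 (SE 0.26) and 1.78 (SE 0.25), followed by sdha-1, a succinate dehydrogenase subunit, by 1.62 and 1.76 (SE 0.18 each), and the aconitase aco-2 by 1.25 and 1.19 (SE 0.28 each). Other subunits of succinate dehydrogenase fell: mev-1 was at -1.24 (SE 0.32) and -1.55 (SE 0.32), and sdhd-1 at -1.22 (SE 0.31) and -1.51 (SE 0.31). The largest falls also held sucg-1 in IvF against F, at -1.79 (SE 0.14), and the pyruvate dehydrogenase kinase pdhk-2 in IvS against S, at -1.17 (SE 0.17).

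**Figure D4:**
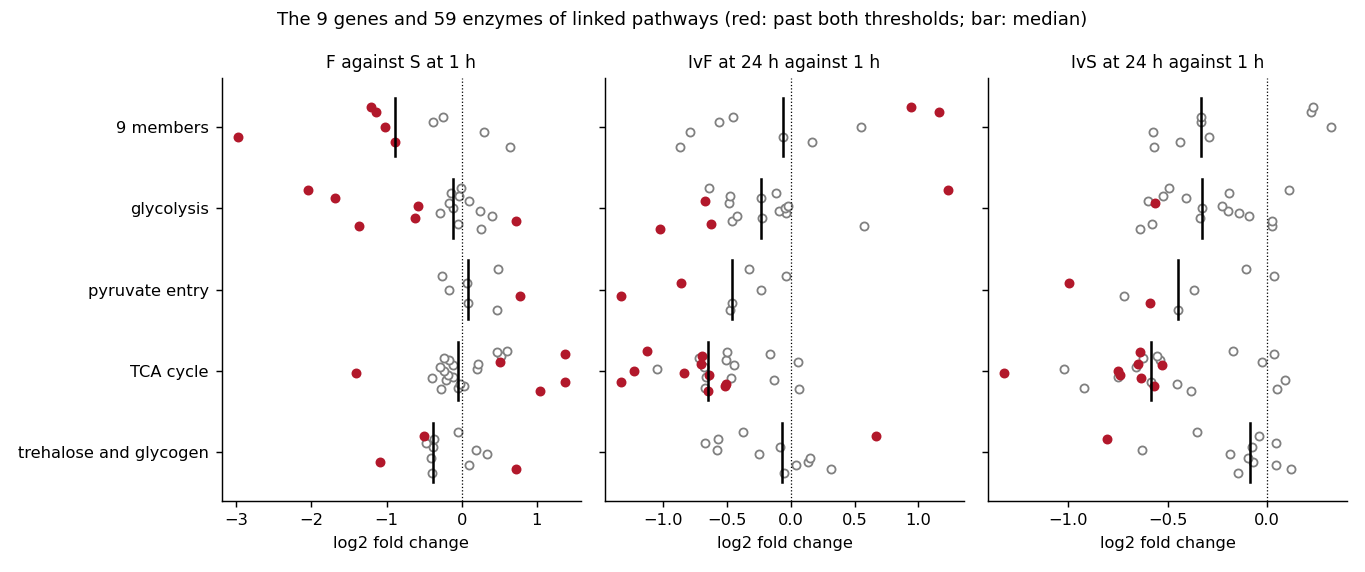
Log2 fold changes of the 9 genes and of 59 genes of 4 linked lists (rows) in F against S at 1 h, IvF at 24 h against 1 h and IvS at 24 h against 1 h. Each point is a gene, red points passed both thresholds, and bars are medians. The citric acid cycle (TCA) list had 10 of 23 genes lower at 24 h in IvF and 8 in IvS, while 2 of the 9 genes rose in IvF.

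The genes most like each of the 9 were found by Pearson r of log2(CPM + 1) over the 24 libraries among the 9096 genes whose mean reached 10 CPM, with the means of the libraries with and without ivermectin subtracted. The libraries of a condition share their treatment and depth, so that r is a description. For icl-1 they were srh-2 (r = 0.94), F21C10.10 (0.92) and C06B3.6 (0.87). Of these srh-2, a gene of the chemoreceptor class, is annotated next to icl-1 on the opposite strand without overlap, and had 39.1, 31.7, 30.2 and 2.97 CPM in S and 1.52 to 6.05 in F, so that S 4 was low there too. Strand was not kept in the libraries, and reads of the neighbours cannot be separated by it. For pck-1 they were pcca-1 (0.94), nhr-57 (0.88) and pccb-1 (0.88), of which pcca-1 and pccb-1 encode the subunits of propionyl-CoA carboxylase. The values of pcca-1 were 281, 833, 677 and 596 CPM in IvF at 1 h against 399 to 468 in IvS, low in IF_1hr_181 like pck-1. The gene pccb-1 (0.86) was also among those most like pyc-1, with bca-2 (0.87) and F25E5.8 (0.84).

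For pck-2 the most alike were pqn-53 (0.94), nfki-1 (0.92) and try-12 (0.92), and for fbp-1 C45E5.1 (0.96), folt-2 (0.94) and ccd-5 (0.94). For gsy-1 they were exc-15 (0.92), hmit-1.3 (0.92) and math-42 (0.89), and for pygl-1 zyx-1 (0.87), sca-1 (0.86) and col-159 (0.84). For tps-1 they were mlcd-1 (0.95), T03E6.8 (0.93) and C08F11.3 (0.93), and for tps-2 cyk-1 (0.97), cest-25 (0.95) and ret-1 (0.95). Of these mlcd-1, a malonyl-CoA decarboxylase gene, had 12.5 to 15.4 CPM in F and 36.4 to 53.1 in S, and cyk-1, which encodes a formin, 9.55 to 17.4 and 22.3 to 49.0. Among the 9 themselves the highest r were those of pck-2 with tps-2 (0.91), tps-1 with tps-2 (0.87) and pck-2 with tps-1 (0.84), followed by pyc-1 with pygl-1 (0.77). The lowest were those of fbp-1 with tps-2 (-0.79) and with pck-2 (-0.74), and pck-1 with pck-2 was at -0.57.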

How the data were processed

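RNA of L1 larvae (TRIzol, polyA selection, a non-directional NEBNext Ultra kit) was sequenced in 24 libraries. The authors mapped reads with Bowtie 1.1.2 to WS210 with WS220 transcripts and counted them per gene with HTSeq, and the deposited values are whole read counts without normalization, 1 table per library. The last 5 entries of each table are HTSeq totals and entered no test (reads outside features were 2.67% to 11.3% and reads shared by genes 2.97% to 10.2% per library). Groups were taken from the sample labels. Genes over 1 CPM in at least 4 libraries were tested with edgeR 4.0.16 in R 4.3.3 (TMM, robust quasi-likelihood F test, 1 fit of 6 group means), and p was adjusted by the Benjamini-Hochberg method over 19050 genes per comparison, so that adjusted p here is always over all genes tested. A gene was called below an adjusted p of 0.05 with a log2 fold change beyond 0.5 either way, after the study's methods, which used edgeR's exact test. All log2 fold changes were computed here from the deposited counts. CPM of the library total and CPM per kb used exon lengths of WBcel235, and no genome position is given because the mapping used another build.

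The genes and lists were chosen with earlier results of these data known. All 9 genes are named in every comparison, and of the linked lists at most 3 in each direction past the thresholds with at least 10 CPM in the higher group. Alternatives were the exact test, DESeq2 1.42.0, its size factors given to edgeR, all genes unfiltered, genes with a mean above 5 CPM, a replicate block, the compared groups alone, a fit without robust, glmTreat, no fold change threshold, reads outside features as a covariate, and leaving out each library. Leaving out S 4 and IF_1hr_181 together was added after seeing the data. All groups share 1 estimate of the spread, so a library left out also changes the SE in comparisons that do not hold it. Deviations from group means of same-numbered samples correlated at 0.16 to 0.75 in each of the 4 pairs of IvF at 1 h and 24 h. These numbers were taken as pairs, and in no other comparison did every pair exceed 0.1. In F against S, replicates 1 to 4 correlated at 0.50, 0.19, 0.06 and 0.44. The highest correlation of each F library with an S library of another number was 0.23, 0.07, 0.16 and -0.10. Replicates of a group differed by at least 5.19 times sampling noise (chi-square per gene), so none was taken as a repeat deposit. The fit was tested on simulated data. Sequences and promoter motifs (planned) were not analysed here.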

Additional observations from a re-analysis of the deposited data

Results flagged for a closer look

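In 54 groups of 4 libraries, 1 for each gene and condition, a library was taken to stand apart where its gap to the nearest other exceeded Dixon's critical share of the range, which chance gives in about 1 group in 20. There were 3 such libraries. In IvF at 1 h, gsy-1 had 83.3 CPM in IF_1hr_181 and 136 to 145 in the others. In IvS at 24 h, I_24hr_185 had 230.3 CPM of tps-1, against 298 to 302, and 173 CPM of tps-2, against 221 to 225.

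In the edgeR fit, a test of the difference in the effect of food between conditions called 2 genes. These were icl-1 with ivermectin (interaction -2.81 on the log2 scale, without a replicate block) and tps-1 with time (0.94). With a replicate block icl-1 lost its call, and tps-1 lost its call in 11 of 16 fits that left out 1 library. The libraries with and without ivermectin form separate sets in the interaction of icl-1.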

How the results depend on the processing

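Of 1710 values of the 9 genes under the alternatives, 1607 kept their side of the thresholds, 37 lost a call, 66 gained one and 0 that were called turned. Of those 1607, 22 changed sign without a call, the largest of them at 0.216 in size. Of these 22, 16 came from leaving out 1 library. The counts of genes called were 5 in F against S, 8 in IvF against F, 5 in IvS against S and, after 24 h, 0 in IvF against IvS, and none of these moved by over 1.5 times. In the interaction of food with ivermectin the count of 1 became 2 with DESeq2, 3 with the filter at a mean of 5 CPM, 2 without S 4 and IF_1hr_181 and 2 with reads outside features as a covariate, and was 1 to 2 when 1 library was left out. In the interaction of food with time the count of 1 became 2 with that filter and 0 with glmTreat, which tests against the fold change threshold, with the groups compared alone, without a filter and without the robust option, and was 0 to 1 when 1 library was left out. In IvF against IvS at 1 h the count of 2 became 0 with glmTreat and 1 without a filter, and was 1 to 2 when 1 library was left out. In IvF at 24 h against 1 h the count of 2 became 5 with DESeq2, 5 with the filter at a mean of 5 CPM, 1 with glmTreat, 4 with the replicate block and 6 without S 4 and IF_1hr_181, and was 2 to 4 when 1 library was left out. In IvS at 24 h against 1 h the count of 0 became 2 with the groups compared alone. The causes were not tested.

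Elsewhere the replicate numbers were not taken as pairs. With a replicate block, icl-1 lost its call in the interaction of food with ivermectin (-2.23, adjusted p = 0.0593), where tps-2 gained one (-0.68, adjusted p = 0.0204). The block also gained fbp-1 in F against S (0.84, adjusted p = 0.00627) and tps-2 in IvF against IvS at 1 h (-0.50, adjusted p = 0.0216). For icl-1 in F against S it gave -2.47 (SE 0.57, adjusted p = 0.00338), and the call was kept. The exact test gave no value for the interactions, and the planned motif search was not run. Each of the 9 genes had at least 366 reads in every library, and the spread between libraries, not counting error, limits these comparisons.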
